A study of Mus musculus with 2 samples.

Results

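The genes described here are 41 mouse genes of protein folding in the endoplasmic reticulum (ER) and of the unfolded protein response. The rule that takes them by symbol uses no measured value, though the members were chosen with earlier results of these data known. They are 41 of the 32285 genes in the count matrices, and each symbol was found. Ddit3 has 2 gene IDs, of which the one with UMIs was used. The members fall into 5 arms by role: 17 chaperones and foldases, 6 genes of ER-associated degradation (ERAD), 4 stress sensors and their factors, 7 genes of the PERK-ATF4 branch and 7 genes of the translocon, the channel through which new secretory proteins enter the ER.

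The study made 2 droplet-based single-cell RNA libraries of islet cells from DIO (diet-induced obese) mice, 1 library per group. The saline group received saline and the CDS group received CDS at 10 mg/kg, both over 2 weeks before islet isolation. An alpha2A-adrenergic receptor antagonist that acts in the periphery is named in the series title; whether CDS stands for it is not stated in the labels. They give no strain, sex, age or number of mice, and do not say whether animals were pooled. With 1 library per group there was no test between groups: every interval below covers counting error only, and differences between the mice, the islet preparations and the treatments cannot be told apart.

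Beta cells make proinsulin in large amounts, and all of it is threaded through the SEC61 translocon into the ER, where chaperones such as BiP (Hspa5) and GRP94 (Hsp90b1), disulfide isomerases and oxidases fold it. The ER membrane sensors IRE1 (Ern1), PERK (Eif2ak3) and ATF6 (Atf6) respond to unfolded protein: IRE1 splices the Xbp1 mRNA, PERK slows translation and lets ATF4 be made, and ATF6 is cut to release a transcription factor. XBP1 and ATF6 act on chaperone and ERAD genes, and ATF4 on amino acid and redox genes and on Ddit3, which encodes CHOP. Spliced and unspliced Xbp1 cannot be distinguished in gene-level counts, so the values below are RNA levels of the genes and no measure of sensor activity.

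Many of these genes carry a shared promoter element, and it is shown first because most of the members that hold it are chaperones. The ER stress element (ERSE) has the letters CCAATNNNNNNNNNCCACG, where the CCAAT end is known to be bound by NF-Y and the CCACG end by ATF6. RefSeq promoter windows of build GRCm38.p6, from 250 bases before to 50 bases after each start, were found for 35 of the 41 members. Ssr2, Sec61a1, Manf, Hyou1, Derl1 and Atf6 had no entry. On either strand, 10 of the 35 members held the ERSE letters, against 37 of all 27025 genes with a window (0.137%). By arm, 8 of 15 chaperones and foldases held them, 2 of 5 ERAD genes, 0 of 3 sensors and factors, 0 of 7 PERK-ATF4 genes and 0 of 5 translocon genes. A match of letters is a description, not a binding site or a cause, and a window without them says only that these letters are not in those 300 bases. The sites below are written 5′ to 3′ on the strand that reads CCAAT first, with both ends of the element in capitals and the spacer in lower case. Hsp90b1 holds the element on both strands and appears on 2 lines.
Hspa5 (chr2:34772025-34772043): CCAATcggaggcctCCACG
Hsp90b1 (chr10:86705638-86705656): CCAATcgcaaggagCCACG
Hsp90b1 (chr10:86705533-86705551): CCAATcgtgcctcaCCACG
Pdia6 (chr12:17266491-17266509): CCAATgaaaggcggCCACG
Calr (chr8:84847075-84847093): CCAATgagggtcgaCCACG
Canx (chr11:50325800-50325818): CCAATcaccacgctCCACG
Dnajc3 (chr14:118937827-118937845): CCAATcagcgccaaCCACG
Creld2 (chr15:88819520-88819538): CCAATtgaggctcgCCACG
Ero1lb (chr13:12565682-12565700): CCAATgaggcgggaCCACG
Syvn1 (chr19:6046532-6046550): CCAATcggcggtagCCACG
Derl3 (chr10:75893242-75893260): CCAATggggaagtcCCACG

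The first base of these elements lay between 44 bases (Syvn1) and 212 bases (Hsp90b1) upstream of the start. The promoter windows of Hspa5 and Hsp90b1 are printed whole because these 2 members had the highest levels in beta-like cells among the members with the element. Each is written 5′ to 3′ on the strand of the gene, with the ERSE ends in capitals. The second Hsp90b1 element lies on the opposite strand and therefore reads CGTGG first.
Hspa5 (chr2:34771840-34772139, + strand): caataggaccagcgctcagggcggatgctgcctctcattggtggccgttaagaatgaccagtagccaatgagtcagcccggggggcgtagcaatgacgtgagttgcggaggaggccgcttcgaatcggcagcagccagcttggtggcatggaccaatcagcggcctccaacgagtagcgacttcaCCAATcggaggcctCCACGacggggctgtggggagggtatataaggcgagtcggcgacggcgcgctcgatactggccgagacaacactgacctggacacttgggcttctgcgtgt
Hsp90b1 (chr10:86705395-86705694, - strand): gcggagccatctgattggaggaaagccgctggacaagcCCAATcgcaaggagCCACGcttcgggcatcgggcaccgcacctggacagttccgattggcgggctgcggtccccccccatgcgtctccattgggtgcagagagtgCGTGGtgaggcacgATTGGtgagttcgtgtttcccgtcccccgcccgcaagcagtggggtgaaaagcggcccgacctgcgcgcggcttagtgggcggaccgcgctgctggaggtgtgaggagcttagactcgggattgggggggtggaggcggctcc

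Other unfolded protein response motifs were rarer among the members. ERSE-II, ATTGGNCCACG, was in the windows of Dnajb11 and Herpud1 and of 12 genes in all (0.0444%). The 8 letters TGACGTGG, the core of the element that XBP1 binds, were in no member window and in 0.714% of all genes. The 8 letters TGATGNAA, the core of the element that C/EBP and ATF4 dimers bind, were in Herpud1, Trib3, Chac1 and Asns, and in 4.51% of all genes.

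In total 124343325 UMIs over 12453 barcodes were present in the saline library and 141191447 UMIs over 7268 barcodes in the CDS library, and 25 barcodes occurred in both. After filters on genes, UMIs and mitochondrial share and removal of called doublets, 10970 and 6188 cells remained, with median depths of 9790 and 19159 UMIs. Cells were assigned by marker genes that are not among the members. The labels call the samples islet b cells, but only 4940 saline and 3646 CDS cells (45.03% and 58.9%) were beta-like, that is, had Ins1 and Ins2 at 15% or more of their UMIs. Of cells with an insulin share between 12% and 18%, around that limit, there were 143 and 138. Beta-like cells had median depths of 15837 and 27593 UMIs, and their summed mitochondrially encoded genes had a ratio of CDS over saline of 0.735 after TMM scaling; the part of either in the results was not tested. The saline library also held 992 B-like, 1163 T-like and 59 plasma-like cells, against 31, 18 and 2 in the CDS library. Insulin RNA in cells of other classes stood at 0.0405 to 0.117 of its share in beta-like cells, so every class carries some RNA of beta cells. Across all genes the ratio between the libraries followed gene span, the length of a gene in the genome: in beta-like cells the fifth of genes with the shortest span (median 3.79 kb) had a median log2 ratio of 0.50 and the fifth with the longest (median 129.7 kb) of -0.35.

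In beta-like cells 4 of the 7 translocon genes were at about 2 or more times their saline level in the CDS library, while most chaperones were near equal. Levels here are UMI counts on the counts-per-million scale (CPM) after TMM scaling, which centres the ratios of all genes, trimmed of extremes, near 1. The ratio is CDS over saline. The fold rule used throughout takes a gene as higher where its CDS level was at least 5/4 of its saline level and as lower where it was 0.8 of it or below. By that rule 15 of the 41 members were higher, 1 was lower and 25 lay between. Of all 15370 genes measured, 29.9% were higher and 21.1% were lower. The median log2 ratio was 0.24 over the members and 0.06 over all genes. Against genes of like span the members' median was 0.08, with 10 members higher and 3 lower, beside 18.0% and 18.2% of all genes. Scaled by plain CPM, which does not adjust for the larger insulin share of the CDS library, 7 members were higher and 11 lower, beside 10.5% and 51.9% of all genes, the share of calls that were higher was 16.8% over all genes in place of 58.7%, and the median over all genes moved by -0.40 (log2). With hormone, acinar and mitochondrially encoded genes left out of plain CPM, 10 members were higher and 7 lower, beside 16.5% and 38.1% of all genes. At a fold of 1.5, 9 members were higher and 0 lower, beside 15.5% and 9.6%.

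**Figure D1:**
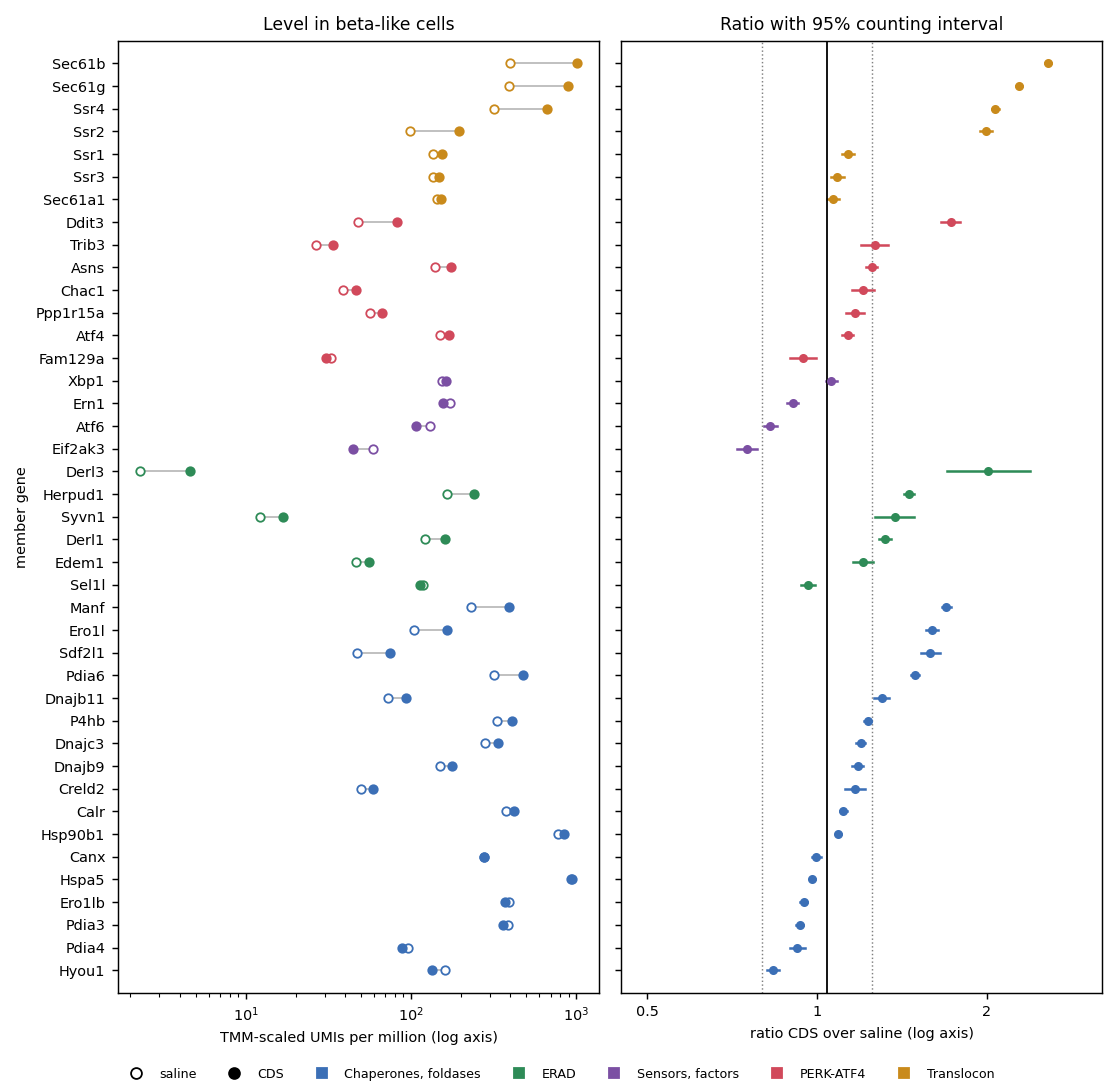
Left, level of each member in beta-like cells in TMM-scaled CPM (log axis), open circles saline and filled circles CDS. Right, ratio of CDS over saline (log axis) with the 95% counting interval, the median of all genes (solid line) and the limits of the fold rule (dotted lines). Sec61b, Sec61g, Ssr4 and Ssr2 lie at ratios of 1.99 to 2.56, while Hspa5 lies at 0.981.

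Among the translocon genes, Sec61b and Sec61g encode the 2 small subunits of the SEC61 channel. Sec61b stood at 398 CPM in saline and 1017 CPM in CDS beta-like cells, a ratio of 2.56 (interval 2.53 to 2.59). Sec61g stood at 393 and 895 CPM, a ratio of 2.28. Ssr2 and Ssr4 encode 2 of the 4 subunits of TRAP, the translocon-associated complex that helps signal peptides engage the channel. Ssr4 stood at 320.1 and 662 CPM (ratio 2.07) and Ssr2 at 98.2 and 195 CPM (ratio 1.99). The other members of the same complexes differed far less. Sec61a1, the pore subunit, stood at 143 and 153 CPM (ratio 1.07), Ssr1 at 136 and 154 CPM (1.13) and Ssr3 at 136 and 148 CPM (1.09). The complexes were thus split, with 4 subunits at ratios near 2 or above and 3 within 1.13 of equal levels. The 4 higher subunits have spans of 3.80 to 12.5 kb, and against genes of like span they remained at 2.03 (Sec61b), 1.81 (Sec61g), 1.69 (Ssr2) and 1.44 (Ssr4).

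Of the 17 chaperones and foldases, 5 were higher and 0 were lower, beside 29.9% and 21.1% of all genes. Against genes of like span 4 were higher and 2 lower, beside 18.0% and 18.2% of all genes. The median log2 ratio of the arm was 0.22, or -0.02 against genes of like span. Hspa5, the main ER Hsp70 chaperone, had 87739 UMIs in saline and 81992 in CDS beta-like cells, which is 949 and 931 CPM, a ratio of 0.981 (interval 0.972 to 0.990). Hsp90b1, the ER Hsp90, stood at 772 and 842 CPM, a ratio of 1.09. These chaperones were thus near equal between the libraries under this scaling. Manf, a secreted ER cofactor of BiP, was the highest of the arm, with 230.4 and 390.4 CPM, a ratio of 1.69 (1.67 to 1.72). Ero1l, an ER oxidase that reoxidises disulfide isomerases, followed with 104 and 166 CPM, a ratio of 1.60 (1.56 to 1.64). Sdf2l1, a component of ER chaperone complexes, stood at 47.1 and 74.6 CPM, a ratio of 1.59 (1.53 to 1.65). Pdia6, a disulfide isomerase, had a ratio of 1.49, and Dnajb11, a J-domain cochaperone of BiP, of 1.30. At the other end of the arm were Hyou1, the nucleotide exchange chaperone of BiP, with 161 and 134 CPM (ratio 0.835, interval 0.815 to 0.856), Pdia4 with 96.1 and 88.7 CPM (0.923, interval 0.895 to 0.952) and Pdia3, which serves glycoproteins, with 386 and 359.6 CPM (0.931, interval 0.917 to 0.946). The beta cell oxidase Ero1lb stood at 391 and 371 CPM (0.947), so the 2 ERO1 oxidases differed in direction around 1. P4hb, at a ratio of 1.23, was just short of the limit. Pdia6, Manf and Ero1l stayed higher against genes of like span, Sdf2l1 (1.06) and Dnajb11 (1.21) did not, and Dnajc3 (1.265) was higher on that scale. Within clusters of beta-like cells (below) the median ratio was 1.28 for Manf, 1.11 for Pdia6, 1.03 for both Sdf2l1 and Dnajb11 and 0.935 for Ero1l, so of these 5 genes Manf alone stayed higher by the fold rule. On that scale Hspa5 (0.784) and Hyou1 (0.756) were lower by the same rule.

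The 15 chaperones and foldases with a promoter window were not set apart by the ERSE letters in this contrast. The 8 with the element had ratios of 0.947 to 1.49 (median 1.10) and the 7 without it ratios of 0.923 to 1.60 (median 1.23). The ranges overlap.

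Of the 6 ERAD genes, 4 were higher and 0 were lower, beside 29.9% and 21.1% of all genes. Their median log2 ratio was 0.43 (0.22 against genes of like span). Herpud1, an ER membrane protein that organises the degradation complex, stood at 166 and 242 CPM, a ratio of 1.46 (1.43 to 1.49). Derl1, a membrane protein of the retrotranslocation channel, stood at 121 and 160.1 CPM, a ratio of 1.32. Syvn1, the ubiquitin ligase HRD1, was low, at 12.2 and 16.7 CPM, with a ratio of 1.37. Derl3 was lower still, with 211 and 404 UMIs in all, or 2.28 and 4.59 CPM, and a wide interval (1.70 to 2.39) around its ratio of 2.01, and within clusters of beta-like cells its median ratio was 0.547. Edem1, which hands misfolded glycoproteins on, had a ratio of 1.21, and Sel1l, the partner of HRD1, stood at 118 and 114 CPM, a ratio of 0.964. Measured against genes of like span, 1 of the 6 was higher, Derl3 (1.36), beside 18.0% of all genes, and Syvn1 lay at 1.05. Within clusters the medians of Herpud1, Derl1 and Syvn1 were 1.095, 1.05 and 1.24, so none of the 4 stayed higher there by the fold rule.

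None of the 4 sensors and factors was higher and 1 was lower, beside 29.9% and 21.1% of all genes. That gene was Eif2ak3 (PERK), which stood at 59.2 and 44.5 CPM, a ratio of 0.752 (0.721 to 0.783). Atf6 stood at 131 and 108 CPM, a ratio of 0.826, and Ern1 (IRE1) at 173 and 157 CPM, a ratio of 0.905. Xbp1 stood at 154 and 163 CPM, a ratio of 1.06. The 3 genes for the sensor proteins have long spans (60.7 to 163 kb), and against genes of like span their ratios were 0.835, 1.08 and 1.07 for Eif2ak3, Atf6 and Ern1. On that scale Eif2ak3 alone of these 3 lay below 1.

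Of the 7 PERK-ATF4 genes, 2 were higher and 0 were lower, beside 29.9% and 21.1% of all genes. Their median log2 ratio was 0.27 (-0.05 against genes of like span). Ddit3, which encodes the transcription factor CHOP, had 4423 UMIs in saline and 7262 in CDS beta-like cells, 47.8 and 82.4 CPM, a ratio of 1.72 (1.66 to 1.79). Trib3, a pseudokinase induced by ATF4 and CHOP, stood at 26.7 and 33.8 CPM, a ratio of 1.26. Asns, asparagine synthetase, stood at 139 and 174 CPM and at a ratio of 1.249 was just short of the limit that Trib3 passed. Atf4 itself stood at 150.2 and 170.2 CPM (1.13), Ppp1r15a, the phosphatase subunit GADD34, at 56.8 and 66.3 CPM (1.17), Chac1, which degrades glutathione, at 38.5 and 46.4 CPM (1.21) and Fam129a at 32.6 and 30.7 CPM (0.944). Ddit3 was thus apart from the rest of its branch, whose ratios lay between 0.944 and 1.26. The ratios of Ddit3 and Trib3 did not hold within clusters of beta-like cells, where their medians were 0.781 and 0.726 (below).

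The other genes of the same pathway were given by the same rule, with named genes taken from those at 20 CPM or more. The counts below stand beside 29.9% higher and 21.1% lower among all genes in beta-like cells. On the scale of like span these shares were 18.0% and 18.2%. Of 29 other genes of the translocon, signal peptidase, signal recognition particle and oligosaccharyltransferase, 16 were higher and 0 were lower (median log2 ratio 0.35). The highest named were 2 small oligosaccharyltransferase subunits, Ost4 with 51.0 and 137 CPM (ratio 2.68) and Tmem258 with 79.2 and 196 CPM (2.48), and the lowest named were Sec63 (0.906) and the catalytic subunit Stt3b (1.03). Of 35 other chaperones and foldases measured, 15 were higher and 1 was lower (median 0.28), with named genes from Fkbp2, a prolyl isomerase (1.80), to Uggt2, a glucosyltransferase of quality control (0.783). Of 21 other ERAD genes 7 were higher and 1 was lower, with Selenok at 2.07 and Edem3 at 0.751. Of 14 other sensors and regulators 4 were higher and 1 was lower, with Eif2s1, the subunit of eIF2 that PERK phosphorylates, at 1.52 and Creb3l1 at 0.727. Of 28 other ATF4 targets 11 were higher and 1 was lower, with Cebpb, a transcription factor that dimerises with CHOP, at 2.17 and Eif4ebp1 at 1.73 as the highest named, and Aldh1l2 (0.835) and Cars (0.951) as the lowest named. On the scale of like span 17 of the 29 translocon and related genes were higher and 0 lower (median 0.43). Likewise measured, the counts were 8 higher and 1 lower for the other chaperones, 4 and 2 for ERAD, 1 and 3 for sensors and regulators and 5 and 0 for ATF4 targets. No list was tested.

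**Figure D2:**
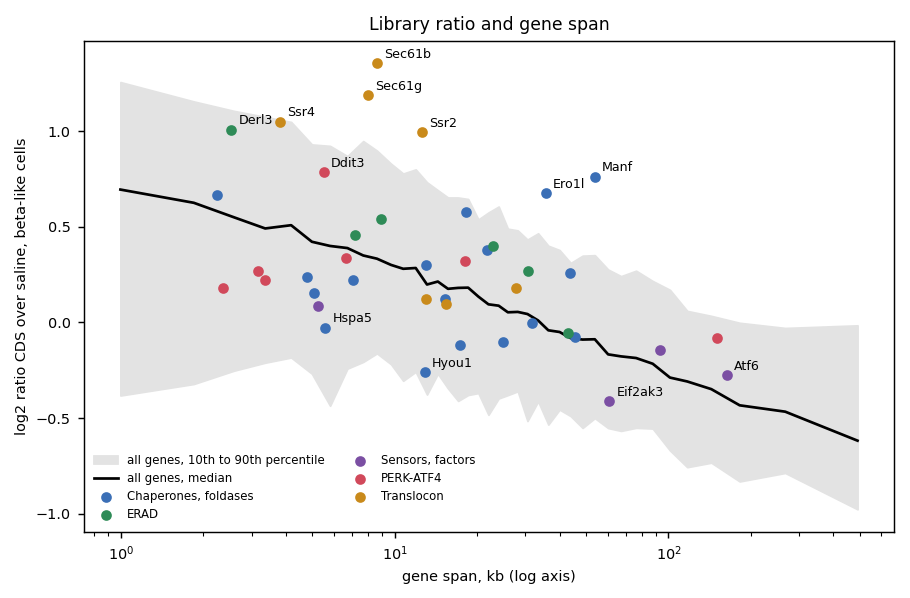
Log2 ratio of CDS over saline in beta-like cells against gene span in kb (log axis): grey band, 10th to 90th percentile of all genes; black line, their median; points, the 41 members coloured by arm. Sec61b, Sec61g, Ssr2, Manf and Ero1l lie above the band at their span, and Hspa5 lies below the line.

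The plot of ratio against span shows how far gene length accompanied these differences. Over 15365 genes the Spearman correlation of log2 ratio with span was -0.56, and over the 41 members it was -0.42; genes of 1 library pair are not independent, and no p is given. Manf (53.7 kb) and Ero1l (35.7 kb) have long annotated spans and had ratios of 1.69 and 1.60, or 1.81 and 1.64 against genes of like span. A span runs from the first to the last annotated base of a gene, and values against genes of like span depend on those limits. Which transcripts of a gene the reads came from was not examined. Hspa5, with a span of 5.58 kb, had a ratio of 0.743 against genes of like span. Whether intronic reads were counted is not given in the sources used here, and what accompanies span in these libraries was not tested.

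Beta-like cells of the libraries also fell into different clusters. Leiden clustering used 2000 variable genes, of which 3 were members (Creld2, Derl3 and Ppp1r15a). Cluster 1 (led by Mctp1 and Ntm) and cluster 0 (led by Slc2a2 and Mafa) held 33.9% and 28.3% of saline beta-like cells and 5.18% and 9.68% of CDS ones. Cluster 4 (led by 2410021H03Rik and Cirbp) and cluster 8 (led by Hmox1, Mt2, Areg, Mt1 and Slc2a1) held 28.9% and 25.1% of CDS beta-like cells and 7.27% and 3.68% of saline ones. Within the saline library Ddit3 stood at 301 CPM (plain, without TMM scaling) in cluster 8, 6.57 times its level in the other beta-like cells, and within the CDS library at 145 CPM, 3.35 times. Ero1l was 5.52 and 2.70 times, Derl3 6.66 and 4.88 times and Trib3 3.44 and 2.34 times as high there as in the other beta-like cells of the same library. Hspa5 was 1.64 and 1.16 times as high and Sec61b 1.07 and 1.05 times. Cluster 8 held 19.7% of the Ddit3 UMIs of saline beta-like cells and 56.7% of those of CDS beta-like cells.

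Compared within clusters, 4 translocon genes stayed higher by the fold rule and Ddit3 and Trib3 did not. In each of the 6 clusters with at least 100 beta-like cells in both libraries, ratios were centred on the median ratio of all genes. Taking each gene's median over these clusters, 5 members were higher and 7 lower, beside 16.7% and 15.3% of all genes. The 7 lower were Hspa5 (0.784), Hyou1 (0.756), Eif2ak3 (0.735), Fam129a (0.762), Ddit3, Trib3 and Derl3. Sec61b lay between 1.78 and 2.58, Sec61g between 1.68 and 2.19, Ssr2 between 1.36 and 1.76 and Ssr4 between 1.30 and 2.05, so all 4 were higher by the fold rule in 6 of 6 clusters. Manf lay between 1.05 and 1.55 and was higher in 5. Ddit3 ranged from 0.370 in cluster 4 to 1.76 in cluster 6, lower by the fold rule in 3 clusters and higher in 1, and its median was 0.781 against 1.72 for the summed cells. Trib3 (median 0.726), Ero1l (0.935) and Derl3 (0.547, measured in 4 clusters) likewise turned from above 1 to below 1. Hspa5 lay between 0.579 and 0.954 and was at 0.8 or less in 3 clusters. Cluster 6, where Ddit3 was at 1.76, was led by the acinar enzyme genes Cela2a, Cela3b, Cpa1, Cpb1 and Ctrb1. Over all beta-like cells the summed acinar markers stood at 212 CPM in saline and 413 CPM in CDS, with 13 of 14 measured markers higher and 1 lower and none at 0. Averaged over all beta-like cells, a share of acinar RNA of that size would carry at most 0.281% of any member's UMIs. This bound uses the members' levels in acinar-like cells and was not computed for cluster 6 alone. The enzyme genes named above were higher in cluster 6 than in the other beta-like cells of both libraries. The part of acinar RNA in the ratios of cluster 6 was not tested.

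Beta-like cells of 1 library differed among themselves more in some members than in others. For this each cell was thinned to 5000 UMIs without Ins1 and Ins2, which left 4605 saline and 3242 CDS cells and left out 335 and 404. The 17 chaperones and foldases summed to a mean of 43.7 UMIs per cell in saline (5th to 95th percentile 22 to 74) and 41.3 in CDS (21 to 68). The 7 translocon genes summed to 14.1 and 23.2 UMIs per cell. The variance over the mean, 1 for pure counting noise, was 7.38 and 6.44 for the chaperone sum. Among single members it was 5.57 and 4.20 for Hspa5, 3.198 and 4.26 for Ero1l, 3.04 and 3.85 for Ddit3 and 3.37 and 2.40 for Ero1lb. It was 1.09 and 1.06 for Xbp1 and 1.11 and 1.09 for Canx. The ratio is pulled toward 1 where counts are low: Hspa5 had a mean of 8.25 and 6.92 UMIs per cell, Canx of 2.46 and 2.05 and Xbp1 of 1.37 and 1.22, so members of different level are not ranked by it. It is also raised by extreme cells: the most Hspa5 UMIs in a cell were 245 and 116, beside 99th percentiles of 25 and 21. The part of such cells in the spread and in the correlations below was not tested.

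Ddit3 was carried by few cells. At 5000 UMIs it was seen in 24.3% of saline and 29.6% of CDS cells (38.7% and 50% before thinning). Before thinning, 50% of its UMIs lay in 336 of the 4940 saline cells (6.80%) and in 246 of the 3646 CDS cells (6.75%). For Hspa5 that share was 25.9% and 25.6% of cells, and for Trib3 it was 7.37% and 8.20%. The share depends on level, so members of different level are not ranked by it. In saline, Hspa5 had 87739 UMIs, Ddit3 4423 and Trib3 2472. Sdf2l1, with 4352 UMIs there, was at 11.3%, and Syvn1, with 1128, was at 8.52%. Derl3 was rarer, with a UMI in 1.52% and 2.87% of thinned cells and 50% of its UMIs in 67 and 60 cells.

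**Figure D3:**
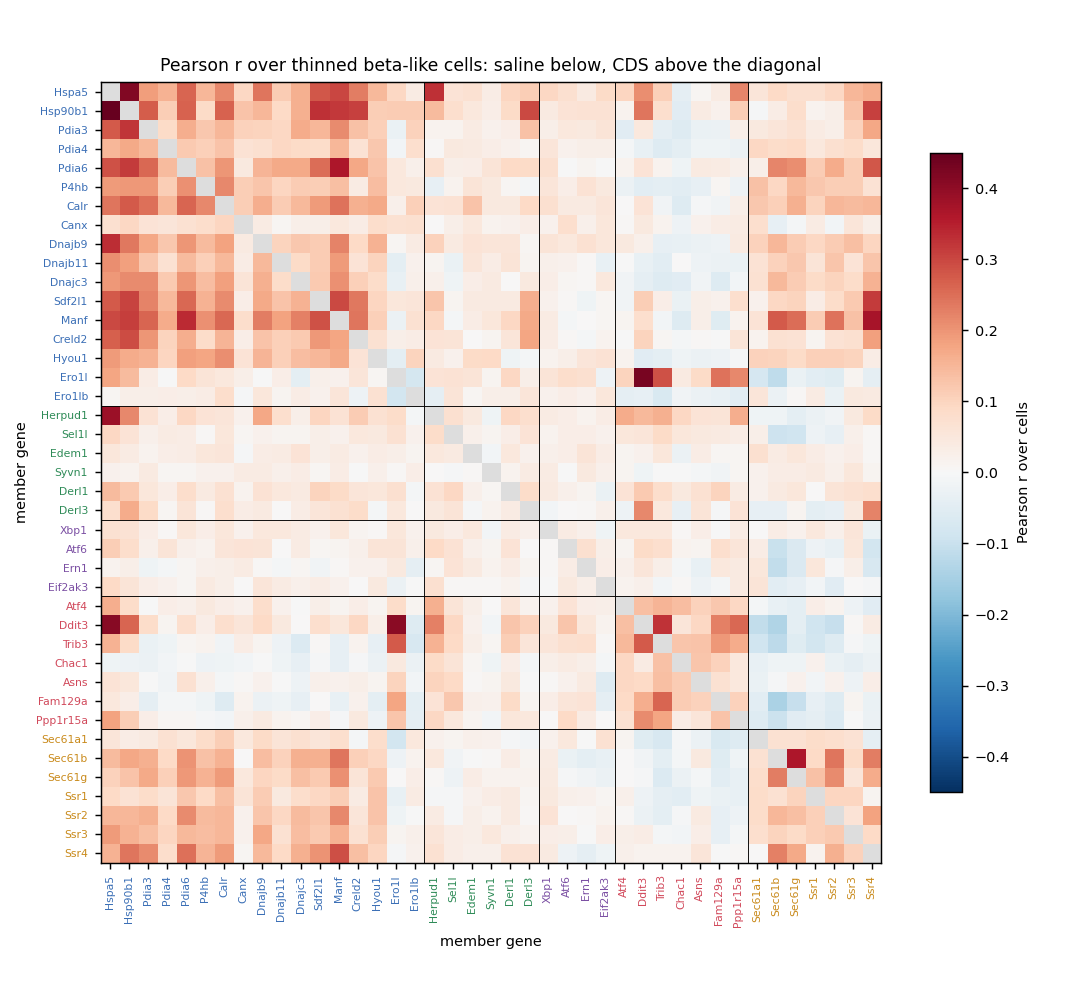
Pearson correlation between each pair of members over thinned beta-like cells, with 4605 saline cells below and 3242 CDS cells above the diagonal (colour scale -0.45 to 0.45, labels coloured by arm). The chaperone block and its band with the translocon are positive in both libraries, and Ddit3, Trib3 and Ero1l are positive with one another.

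The correlations over cells were mostly weak, and the pairs with the highest values lay among the chaperones, between Ero1l and Ddit3 and between Hspa5 and Herpud1. These values are descriptions over cells that share a library and a depth of 5000 UMIs, and low genes are pulled toward 0 by counting noise. Ordered by the lower of the 2 values, the closest pair was Hspa5 and Hsp90b1 (r = 0.50 in saline and 0.42 in CDS), followed by Ero1l and Ddit3 (0.40 and 0.43), Pdia6 and Manf (0.33 and 0.36) and Hspa5 and Herpud1 (0.39 and 0.33). Ero1l, counted here with the foldases, is a known target of CHOP: it correlated with Ddit3 and with Trib3 (0.28 and 0.29) and less with the sum of the other chaperones (0.12 and 0.06). Ddit3 itself correlated with the chaperone sum at 0.31 and 0.22, and Trib3 at 0.08 and 0.06. Over all 820 pairs the lowest were Fam129a and Sec61b (-0.05 and -0.14) and Ddit3 and Sec61b (-0.02 and -0.14). By arm, the chaperone sum correlated with the translocon sum (0.46 and 0.38) and with the ERAD sum (0.31 and 0.28), the PERK-ATF4 sum with ERAD (0.30 and 0.28) and with the chaperones (0.21 and 0.16), and its values with the translocon were -0.02 and -0.13. In both libraries Ddit3 was thus positive with the summed chaperones. With Sec61b it was near 0 in saline (-0.02) and negative in CDS (-0.14).

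Members were also followed over cells ordered by insulin share. Beta-like cells of each library were cut into 5 equal bins by the share of Ins1 and Ins2, with median shares from 24.8% to 43.7% in saline and from 26.1% to 51.9% in CDS, and levels were taken as CPM with Ins1 and Ins2 left out of the total. The translocon sum was 1.38 times as high in the top as in the bottom bin of both libraries (2430 to 3345 on that scale in saline and 3950 to 5456 in CDS). Ssr4 was 1.93 and 2.07 times as high, Sdf2l1 1.66 and 1.93 times and Manf 1.52 and 1.55 times. The ERAD sum was 1.193 and 1.198 times and the chaperone sum 1.199 and 1.04 times as high. The sensor sum was 0.90 and 0.70 times and the PERK-ATF4 sum 1.04 and 0.90 times as high. Several members were below 1 for the top over the bottom bin in both libraries. Among them were Ddit3 at 0.80 and 0.52, Ero1l at 0.74 and 0.55, Trib3 at 0.66 and 0.70 and Ern1 at 0.79 and 0.55. Atf6, Eif2ak3, Fam129a, Ppp1r15a and Canx were also below 1 in both. Chac1 (1.35 and 1.27) and Asns (1.24 and 1.11), of the same arm as Ddit3, were above 1. From the bottom to the top bin Ddit3 stood at 118, 78.5, 69.4, 67.9 and 94.8 in saline and at 199, 121, 92.7, 96.1 and 104.3 in CDS. Ddit3 was thus highest in the bin with the least insulin RNA in both libraries, and from there it did not fall steadily, with the top bin above the 3 middle bins in saline and above the third and the fourth in CDS. The CDS bins sit at higher insulin shares than the saline bins, so bins of equal rank are not at equal insulin levels.

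Across cell classes, plasma-like cells had the highest levels of most members. Here levels are plain CPM, without TMM scaling, and intervals are exact Poisson 95% intervals on UMIs summed over the cells of a class. In the saline library 11 classes had at least 50 cells, and the 59 plasma-like cells, antibody-secreting cells gated on genes such as Jchain and Mzb1, were highest for 27 of the 41 members. The members summed to 33767 CPM there and to 9308 CPM in beta-like cells. Without hormone, acinar enzyme, immunoglobulin and mitochondrially encoded genes in the denominator, plasma-like cells were highest for 26. Creld2, an ER protein of the response, stood at 1536 CPM (1446 to 1631), which is 26.7 times its level in beta-like cells. Sdf2l1 stood at 642 CPM (11.9 times), Pdia4 at 1116 CPM (10.1 times) and Hsp90b1 at 8133 CPM (9.16 times). Among ERAD genes Derl3 stood at 210.4 CPM, 80.1 times its level in beta-like cells, Edem1 at 532 CPM (9.98 times) and Syvn1 at 78.2 CPM (5.57 times, 55 UMIs). Xbp1 stood at 2098 CPM, 11.9 times its level in beta-like cells, and Atf6 at 329.7 CPM (2.20 times). The translocon genes differed less, with Ssr2 at 446 CPM (3.95 times), Ssr4 at 1232 CPM (3.35 times) and Ssr3 at 411 CPM (2.63 times). Of the 7 PERK-ATF4 genes, 0 were higher in plasma-like than in beta-like cells. The CDS library had only 2 plasma-like cells, so these levels rest on 1 library.

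**Figure D4:**
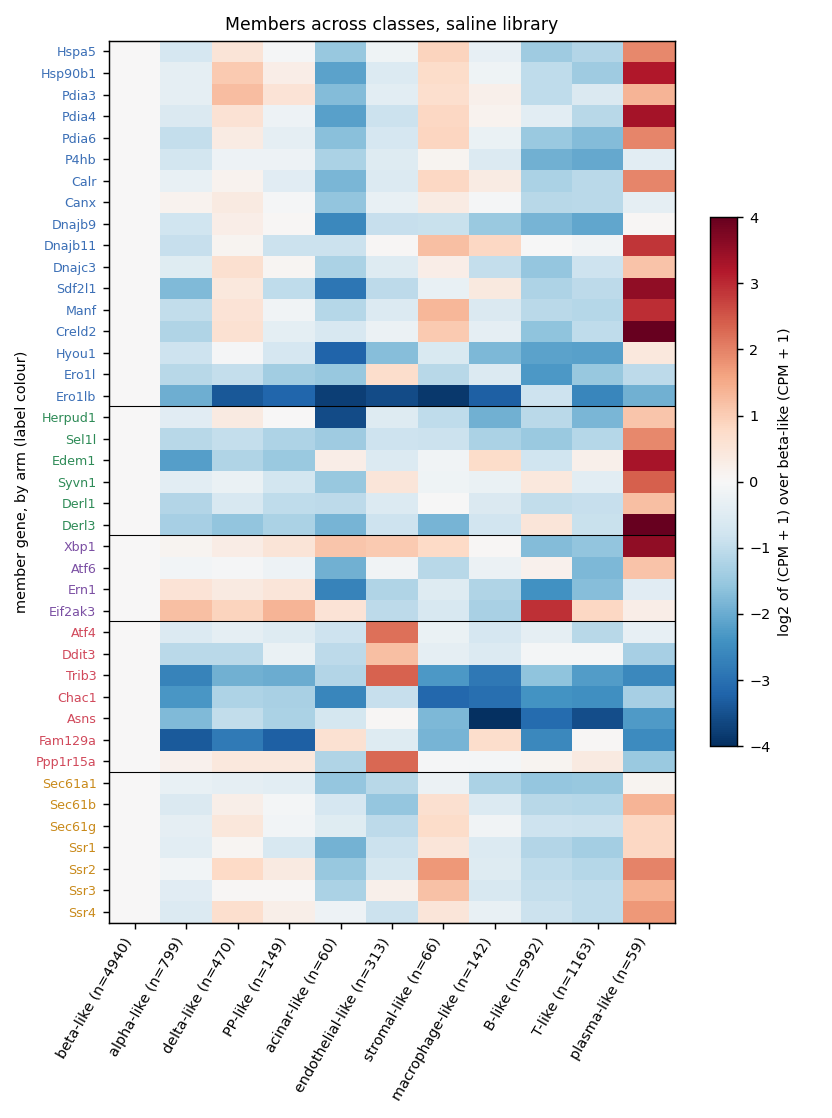
Level of each member in the 11 classes of the saline library relative to beta-like cells, as log2 of (CPM + 1) over (CPM + 1), with cell numbers on the axis; the colour scale ends at 4, which Creld2 and Derl3 in plasma-like cells exceed. Chaperones, ERAD and translocon genes are high in plasma-like cells, and Atf4, Ddit3, Trib3 and Ppp1r15a in endothelial-like cells.

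Of the 7 PERK-ATF4 genes, 5 (Asns, Atf4, Ddit3, Ppp1r15a and Trib3) were highest in endothelial-like cells of both libraries, while Chac1 was highest in beta-like and Fam129a in macrophage-like cells. Without secretory and mitochondrial genes in the denominator 4 of the 7 were, all but Asns of those 5. In the 313 saline cells of that class Atf4 stood at 806 CPM (4.66 times beta-like), Ppp1r15a at 326 CPM (4.99 times), Trib3 at 162 CPM (5.28 times) and Ddit3 at 129 CPM (2.34 times). In the 242 CDS endothelial-like cells these genes stood at 929, 450.02, 229 and 168 CPM, again the highest of any class. In saline beta-like cells Chac1 stood at 44.3 CPM, and Ero1lb, also highest in beta-like cells of both libraries, at 450.03 CPM. Eif2ak3 was highest in B-like cells of the saline library, at 521 CPM against 68.1 CPM in beta-like cells (7.65 times), and B-like cells had the next level of Ero1lb, 255 CPM. Acinar-like cells, whose normal task is enzyme secretion, were highest for 0 members and summed to 3909 CPM over 60 cells, under the beta-like level. Their median depth was 6007 UMIs per cell.

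Among the endocrine classes, delta-like cells had higher chaperone levels than beta-like cells on the plain CPM scale. In saline the chaperone arm summed to 7903 CPM in delta-like, 5744 CPM in beta-like, 5185 CPM in PP-like and 3736 CPM in alpha-like cells, and in CDS to 8294, 4870, 4326 and 3711 CPM. The order was the same in both. Hsp90b1 stood at 1818 CPM in saline and 1949 CPM in CDS delta-like cells, against 888 and 732 CPM in beta-like cells. Insulin takes 35.4% and 41.01% of beta-like UMIs and so lowers every other gene there: without hormone, acinar enzyme and mitochondrially encoded genes, the chaperone sums were 9768 in delta-like and 10038 in beta-like cells of the saline library, and 10329 and 9534 in the CDS library. On that scale the order of the 2 classes turned in saline and did not turn in CDS.

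In other classes 4 translocon genes were again higher in the CDS library before adjustment for span, while the chaperones differed between classes. The comparison was made in the 5 classes with at least 100 cells in each library, again with TMM scaling. The ratio of Sec61b was 2.56 in beta-like cells, 2.15 in alpha-like cells, 1.87 in delta-like cells, 1.61 in macrophage-like cells and 1.60 in endothelial-like cells. Sec61g, Ssr2 and Ssr4 were also higher by the fold rule in all 5 classes, with ratios from 1.32 (Ssr2 in macrophage-like cells, interval 0.973 to 1.80) to 2.28. Manf lay at 1.89 in endothelial-like cells, at 1.54 in both alpha-like and delta-like cells, while the macrophage-like ratio was 1.24. Against genes of like span Sec61b, Sec61g, Ssr2 and Ssr4 were all higher in alpha-like and delta-like cells. In endothelial-like cells Sec61b (1.28), Sec61g (1.29) and Ssr2 (1.38) were higher and Ssr4 (1.202) was not. In macrophage-like cells Sec61b alone was higher (1.28), Sec61g, Ssr2 and Ssr4 lay at 1.15, 1.155 and 1.205, and Sec61a1 was lower (0.755).

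**Figure D5:**
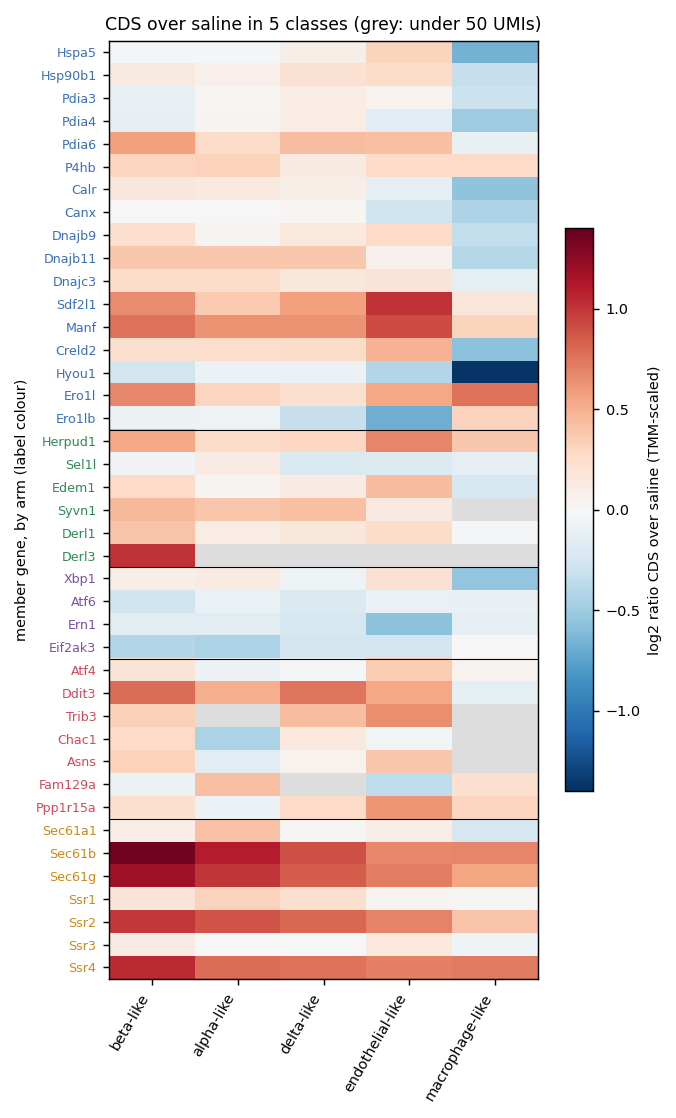
Log2 ratio of CDS over saline (TMM-scaled) of each member in 5 classes, grey where a member had under 50 UMIs or none in 1 library. Sec61b, Sec61g, Ssr2 and Ssr4 are higher in all 5 columns, and the macrophage-like column is blue for most chaperones.

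By count, 13 of 39 measured members were higher and 2 lower in alpha-like cells (24.4% and 15.2% of all genes), 11 of 39 and 0 in delta-like cells (21.4% and 17.4%) and 16 of 40 and 4 in endothelial-like cells (27.7% and 19.1%). The median log2 ratios were 0.12, 0.15 and 0.26. Against genes of like span 7 members were higher and 6 lower in alpha-like cells (12.9% and 13.7% of all genes), 6 and 2 in delta-like cells (12.8% and 13.3%) and 8 and 6 in endothelial-like cells (15.7% and 18.1%), with medians of 0.008, 0.03 and 0.02, so the members as a list lay near the median of genes of like span in these 3 classes. Endothelial-like cells had Sdf2l1 at a ratio of 2.02 and, in the PERK-ATF4 arm, 5 of 7 genes higher and 1 lower (Fam129a, 0.784), among them Trib3 (1.57), Ppp1r15a (1.53) and Ddit3 (1.45). Of these 7 genes, 0 were higher against genes of like span and 1 was lower (median log2 0.15). Ddit3 was also higher in alpha-like (1.42) and delta-like cells (1.69), whereas Chac1 was lower in alpha-like cells (0.735, interval 0.497 to 1.09, from 53 and 58 UMIs).

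Macrophage-like cells, 142 in saline and 134 in CDS, went the other way in the chaperone arm. There 7 of 36 measured members were higher and 10 lower, beside 29.0% and 21.8% of all genes, and against genes of like span 5 were higher and 15 lower, beside 21.2% and 21.5%. Of the 17 chaperones and foldases, 9 were lower and 2 higher, with a median log2 ratio of -0.32; against genes of like span 11 were lower and 3 higher (median -0.48). With the class taken from Leiden clusters 8 of the arm were lower, while the median over all members was 0.11 in place of -0.10. Hspa5 stood at 815 and 514 CPM, a ratio of 0.631 (0.566 to 0.702), Calr, the lectin chaperone calreticulin, at 510.3 and 346 CPM (0.678) and Hyou1 at 49.0 and 18.9 CPM (0.386, from 46 and 23 UMIs). Xbp1 stood at 169 and 116 CPM, a ratio of 0.684. These rest on few UMIs per gene, and 2 of the 9 had intervals that held 1, Creld2 (0.412 to 1.09) and Dnajb9 (0.528 to 1.17). Genes leading the class over the other classes of the same library also differed, with Cd74 and H2-Eb1 among the first 10 in CDS and not in saline. That ranking depends on the other classes, which held 992 B-like cells in saline and 31 in CDS. It therefore does not show a difference within macrophage-like cells. Whether the mix of macrophages has a part in the chaperone ratios was not tested.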

How the data were processed

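The 2 libraries of single islet cells were 1 per group. The deposited matrices hold whole-number counts of UMIs per gene and cell, which per the submitters' processing notes came from Cell Ranger 7.1 with mm10; the notes also name Seurat 4 and edgeR. The sources used here do not give the annotation release or say whether introns were counted, and the labels' protocols name more than 1 version of the kit chemistry.

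Cells with at least 500 genes, 1000 UMIs and at most 20% mitochondrial UMIs were kept, and doublets called by Scrublet were removed (621 and 227). Classes were gated on summed marker genes as a percent of UMIs; the limits were set after the marker distributions were seen, and no member takes part. Clusters came from scanpy 1.11.5 and leidenalg 0.10.2 (2000 variable genes, resolution 1). UMIs were summed per class and library and scaled by TMM (edgeR 4.0.16), with no test because each group has 1 library; intervals on ratios are exact conditional Poisson 95% intervals. Genes with at least 50 UMIs over both libraries were measured. Ratios against genes of like span subtract a running median over 501 genes. PCR and sampling of cells add error that these intervals do not hold.

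On simulated counts for beta-like cells (15432 genes), the fold rule called 100% of genes changed by 1.5, 2 or 0.5 times, 90.0% of those changed by 0.667 times and 5.73% of unchanged genes. Both simulated libraries were Poisson draws from the same profile, with 200 genes changed. Other differences between libraries, apart from depth, were not simulated. The 5.73% thus covers counting error and scaling alone and is no error rate for the real contrast. In each arm the 3 highest and 3 lowest members at 20 CPM or more were named, with Hspa5, Ddit3, Xbp1 and Sec61b. Of other pathway genes, the 2 highest and 2 lowest per group could be named. Across classes, the 3 members per arm with the largest ratio to beta-like cells were named. The members and lists were chosen with earlier results of these data known.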

Additional observations from a re-analysis of the deposited data

Results flagged for a closer look

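Dnajb11, the J-domain cochaperone of BiP, lay on opposite sides of the fold limits in different classes. Its ratio of CDS over saline was 1.30 in beta-like cells, 1.30 in alpha-like cells and 1.30 in delta-like cells, and 0.76 in macrophage-like cells. Against genes of like span the ratios were 1.21, 1.22, 1.23 and 0.701, so the first 3 were then under the limit for higher. Within clusters of beta-like cells the median was 1.03. The levels in macrophage-like cells were 138.5 and 105.3 CPM, from 130 and 128 UMIs. With 1 library per group the difference between classes was not tested.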

How the results depend on the processing

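Of the 41 members, 5 (Manf, Sec61b, Sec61g, Ssr2 and Ssr4) were higher by the fold rule in beta-like cells in all 15 settings that gave ratios, and 0 were lower in all. The settings include the main one, and all use the same pair of libraries. Those that change only the minimum of UMIs leave a member's ratio as it is, so the settings are not independent checks. With plain CPM 7 members were higher and 11 lower (10.5% and 51.9% of all genes), with median log2 ratios of -0.16 (all members), -0.18 (chaperones), 0.023 (ERAD), -0.61 (sensors), -0.13 (PERK-ATF4) and 0.59 (translocon), and Dnajb11 (0.983), Derl1 (0.996) and Trib3 (0.956) turned. Without hormone, acinar and mitochondrially encoded genes 10 were higher and 7 lower (16.5% and 38.1% of all genes), with medians in the same order of 0.00043, -0.016, 0.19, -0.45, 0.031 and 0.75. With cells thinned 11 were higher and 2 lower (27.0% and 26.1%), with medians of 0.17, 0.12, 0.30, -0.26, 0.20 and 0.93. Against genes of like span 3 were lower, with medians of 0.085, -0.022, 0.22, -0.080, -0.053 and 0.52, and Trib3 was at 0.964. With a fold of 1.5, 9 were higher and 0 lower (15.5% and 9.6%). The median over all members was -0.0062 in alpha-like cells with plain CPM, 0.32 in delta-like cells by Leiden clusters and 0.11 in macrophage-like cells by Leiden clusters. The macrophage-like chaperone median was -0.52 with plain CPM.

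The next 2 alternatives were chosen after seeing the data. As the median over beta-like clusters, 5 were higher and 7 lower (16.7% and 15.3% of all genes); the medians were -0.081 (all members), -0.096 (chaperones), 0.069 (ERAD), -0.18 (PERK-ATF4) and 0.56 (translocon), and Ero1l (0.935), Derl3 (0.547), Ddit3 (0.781) and Trib3 (0.726) turned. Without secretory and mitochondrial genes in the denominator, acinar-like cells were highest for 1 member and beta-like cells for 8 in the saline library. The causes were not tested. Leaving out a replicate could not be run with 1 library per group. No paired analysis was possible because each group has 1 library.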

Other observations

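Outside the members, the genes that varied most closely with the chaperones over beta-like cells were mostly genes of the early secretory pathway. Over 2172 genes with at least 50 CPM in both libraries, the 10 with the highest correlation with the summed chaperone arm, by the lower of the 2 libraries, were Fkbp11, Selenok, Tmed9, Lman1, Spcs2, Sec11c, Selenos, Scg3, Rplp0 and Serp1. Fkbp11, an ER prolyl isomerase, had r = 0.32 in saline and 0.31 in CDS, and Serp1, a translocon-associated protein, had 0.24 in both. Spcs2 and Sec11c encode subunits of signal peptidase, and Lman1 and Tmed9 encode cargo receptors of transport between ER and Golgi. Of these 10 genes, 7 are on the lists of other pathway genes, which make up 73 of the 2172 (3.36%). The median of the lower correlation over all 2172 genes was -0.02 and the 95th percentile 0.10. The values are over 4605 and 3242 cells that share a library and a depth of 5000 UMIs, and are a description.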
